A study of Caenorhabditis elegans with 6 samples.

Results

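The libraries that carry replicate number 2 were set against those that carry replicate number 1 in a study of aspartame in the nematode Caenorhabditis elegans. Of the 6 libraries in the study, 4 enter this comparison by the number in their titles, ASP 2 and Control 2 against ASP 1 and Control 1. All were made from poly(A)-selected RNA of whole animals of N2, the wild-type laboratory strain. ASP animals were given 100 µM aspartame, the sweetener built from aspartic acid and the methyl ester of phenylalanine, and Control animals are the group labelled as its control. The 2 libraries of each number thus hold 1 ASP and 1 Control library, and ASP against Control was a term of the model. ASP 3 and Control 3 are quoted for context only. The labels do not say what a replicate number stands for, how old the animals were, what they were fed, or whether those sequenced had met Pseudomonas aeruginosa, the bacterium named in the study's design text. Nor do they say that cultures were separate, so the spread that p-values measure here may be technical. Each number holds 1 library per group, so no spread among libraries of the same group and number was measured. The spread of a gene is instead how unlike its difference between the numbers was in ASP and in Control. A treatment effect that changed with the number would enter it.

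Values are FPKM, fragment counts divided by transcript length and library depth, which allow levels to be compared between genes. Of the 25212 genes in the deposited table, 13790 averaged 1 FPKM or more across the 6 libraries and were tested. Genes were called at an adjusted p under 0.05 in edgeR's quasi-likelihood test on the deposited estimated counts, with Benjamini-Hochberg adjustment over all tested genes. The log2 differences are number 2 over number 1, with their standard error (SE). Total counts were 57702213 in ASP 2, 55252845 in Control 2, 53558562 in ASP 1 and 55254791 in Control 1. Ribosomal RNA genes held 5.74% and 5.81% of the counts in ASP 2 and Control 2, against 5.10% and 3.24% in ASP 1 and Control 1. Leaving these genes out gave 1523 called genes, against 1528 with them. Markers fixed for the tissues of a whole animal were looked up among the tested genes, whose FPKM minimum is a mean over all 6 libraries. No listed gene of intestine, muscle, neurons, germ line, oocytes and eggshell or sperm was at 0 FPKM in all 4 compared libraries. Of the listed genes, 19 of 19 for intestine, 29 of 29 for muscle, 20 of 24 for neurons, 18 of 18 for the germ line, 14 of 14 for oocytes and eggshell and 84 of 85 for sperm passed the FPKM minimum, but only 5 of 18 for the early zygotic embryo did.

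Some biology helps in reading the genes that follow. A worm larva builds a new cuticle beneath the old one before each molt, and the collagens, proteases, hedgehog-related proteins and regulators that take part are transcribed in waves tied to the molting cycle. The hermaphrodite germ line makes sperm first and oocytes later, and loads oocytes with maternal RNA-binding proteins and eggshell components. Propionate, a product of branched-chain amino acid and odd-chain fatty acid breakdown, is cleared by a pathway that needs vitamin B12. When that route fails, worms switch on a B12-independent bypass, the propionate shunt, whose first enzyme is encoded by acdh-1.

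The libraries numbered 2 and 1 differed in 1528 of 13790 genes (11.1%). Higher in number 2 were 918 genes (6.66%), and lower were 610 (4.42%), while 3301 genes had an unadjusted p under 0.05. Called higher genes differed more, with a median log2 difference of 0.73, against −0.45 for called lower genes. Differences of 2-fold or more were called for 303 higher genes (2.2%) and 97 lower genes (0.703%), and differences of 4-fold or more for 43 and 22. The median over all tested genes was 0.006, with quartiles at −0.14 and 0.18. FPKM of the 2 libraries of number 2 and the 2 of number 1 did not overlap for 7416 genes (53.8%), far more than were called. With the libraries numbered 3 in the fit 530 genes were called, all of them among the 1528. When 1 library was then left out, 195 were called without ASP 2, 78 without Control 2, 413 without ASP 1 and 633 without Control 1. DESeq2 on the 4 libraries called 898.

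The difference between the numbers was seen in both treatment groups. ASP 2 over ASP 1 and Control 2 over Control 1 share no library, and across 13790 genes their log2 differences had a Pearson r of 0.571 and a Spearman rho of 0.454, a description only, since genes are not independent replicates. The 2 differences had the same sign in 9068 genes (65.8%). Agreement was closer among the genes that moved most. Of 212 genes averaging 5 FPKM or more that were 2-fold or more apart between ASP 2 and ASP 1, 205 (96.7%) had the same sign in Control, and 124 were 2-fold or more apart there too. Of 194 genes 2-fold or more apart between Control 2 and Control 1, 190 (97.9%) had the same sign in ASP.

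**Figure D1:**
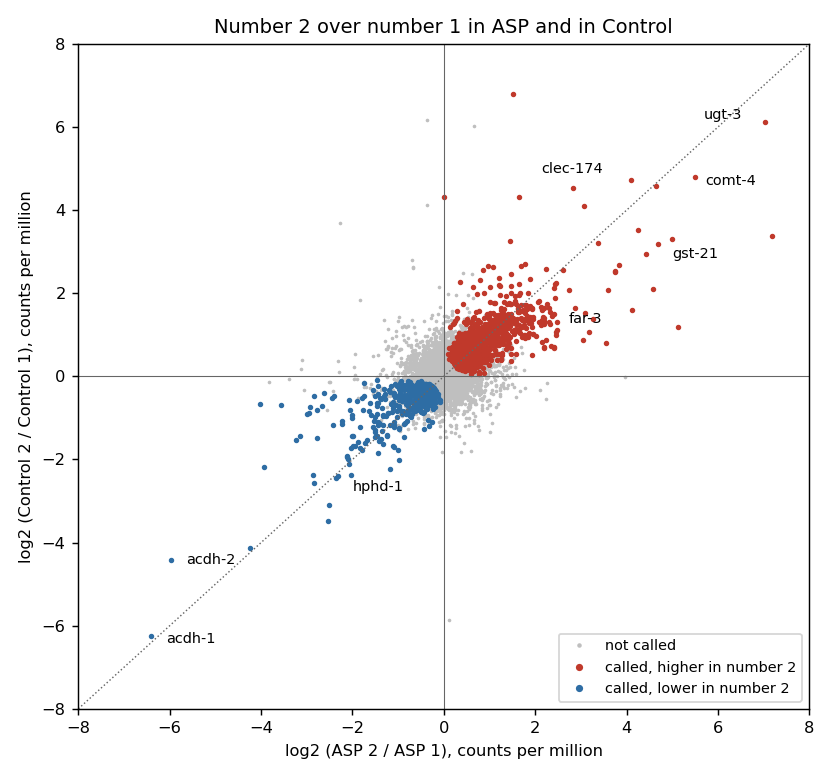
Each point is 1 of the 13790 tested genes, with the log2 ratio of ASP 2 to ASP 1 in counts scaled to depth on the x axis and that of Control 2 to Control 1 on the y axis; red and blue points were called higher or lower in number 2. The labelled genes have the same sign in both groups, with ugt-3 at 7.03 and 6.12 and acdh-1 at −6.40 and −6.24. Some lie off the dotted line of equal differences, as do gst-21 at 4.69 and 3.19 and acdh-2 at −5.97 and −4.42.

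The 12 genes that rose most in number 2 included members of the UDP-glucuronosyltransferase, catechol-O-methyltransferase and glutathione S-transferase families. They were taken as the protein-coding genes with the largest called difference, a level averaging 5 FPKM or more in the 4 libraries and the same sign in ASP and Control, and they rose 4.48- to 109-fold. The largest rise was that of ugt-3 (gene ID 191174, V 12798308 to 12800271 in the coordinates of the deposited table), a UDP-glucuronosyltransferase, an enzyme that attaches sugars to small molecules for excretion. It had 69.0 FPKM in ASP 2 and 20.6 in Control 2, against 0.519 in ASP 1 and 0.271 in Control 1. ugt-3 was thus below 1 FPKM in both libraries numbered 1, and the log2 difference was 6.77 (SE 0.16, edgeR adjusted p 1.92e-14). Another family member, ugt-63 (182223, V 5108180 to 5110772), had 28.7 and 19.7 FPKM in ASP 2 and Control 2, against 2.07 and 3.04 in ASP 1 and Control 1 (log2 3.25).

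Genes named for catechol-O-methyltransferases, comt-4 and comt-5, lie close together on chromosome V and both rose. comt-4 (189789, V 2049217 to 2050185) reached 654 FPKM in ASP 2 and 299 in Control 2, against 14.9 in ASP 1 and 10.7 in Control 1, the highest level in number 2 among the 12 (log2 5.16, SE 0.14, edgeR adjusted p 2.04e-13). For comt-5 (178684, V 2052226 to 2053609), FPKM were 93.3 and 35.1 in ASP 2 and Control 2, against 4.45 and 4.46 in ASP 1 and Control 1 (log2 3.71). The neighbouring comt-3 differed little, with 46.6 and 44.2 FPKM against 39.2 and 35.1 (log2 0.31, edgeR adjusted p 0.0299, lost with the libraries numbered 3 in the fit). The members comt-1 and comt-2 were below the FPKM minimum.

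Glutathione S-transferases, which couple glutathione to reactive compounds, gave 2 more of the 12. gst-21 (191412, V 1730684 to 1732018) was at 21.05 and 11.7 FPKM in ASP 2 and Control 2, against 0.802 and 1.23 in ASP 1 and Control 1. gst-35 (259481, II 15183807 to 15185389) had 59.4 and 38.9 FPKM in ASP 2 and Control 2, against 3.18 and 3.31 in ASP 1 and Control 1. Both rose about equally on the log2 scale, by 3.95 (SE 0.28) and 3.90 (SE 0.16). The metal-responsive genes numr-1 and numr-2 rose by 3.15 and 3.17, numr-2 with 42.7 and 20.4 FPKM in ASP 2 and Control 2, against 3.22 and 3.44 in ASP 1 and Control 1. These neighbours on chromosome III had nearly the same value in every library, and reads shared between similar copies leave each single value uncertain.

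clec-174 (189943, IV 3940259 to 3941708), which encodes a C-type lectin-like protein, was high in number 2 alone. It had 36.7 and 52.8 FPKM in ASP 2 and Control 2, against 2.18 and 1.94 in ASP 1 and Control 1, and 3.58 and 2.99 in ASP 3 and Control 3 (log2 4.43, SE 0.14, edgeR adjusted p 7.86e-13). far-3 (179785, V 12996787 to 12997522), a fatty acid and retinol binding protein gene, followed another order. Its FPKM were 45.7 and 34.3 in ASP 2 and Control 2, against 8.74 and 9.13 in ASP 1 and Control 1, and 517 and 553 in ASP 3 and Control 3 (log2 of number 2 over number 1 2.16). The remaining 2 were ech-9, an enoyl-CoA hydratase family gene (log2 2.42, SE 0.10), and ZK1025.3 (log2 3.31, SE 0.21). ZK1025.3 had 52.9 and 61.4 FPKM in ASP 3 and Control 3, against 10.8 and 10.5 in ASP 2 and Control 2.

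Within number 2, 10 of these 12 genes were higher in ASP 2 than in Control 2, with a median ratio of 1.66. In number 1, 4 of the 12 were higher in ASP 1 than in Control 1, with a median ratio of 0.959. comt-5 shows the pattern, with an ASP 2 to Control 2 ratio of 2.66 and an ASP 1 to Control 1 ratio of 0.998. Each ratio sets 1 library against 1, so the difference was not tested. Without ASP 2 all 12 genes were still called. Their calls ended only when genes of any level were admitted, where no gene at all was called, and, for comt-5, also in the fit with a robust shared spread.

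acdh-1 and the propionate shunt fell in number 2. acdh-1 (172358, I 6497436 to 6499560) encodes the acyl-CoA dehydrogenase that opens the shunt. It had 3.98 FPKM in ASP 2 and 4.80 in Control 2, against 349.7 in ASP 1 and 364 in Control 1. The 2 libraries of each number were close to each other, and the gap was 80.3-fold (log2 −6.33, SE 0.12, edgeR adjusted p 1.17e-15). In ASP 3 and Control 3 acdh-1 stood at 1.43 and 2.23 FPKM, so the libraries numbered 1 were the ones with a high level. Its paralog acdh-2 (173940, II 5544778 to 5547492) had 0.262 and 0.781 FPKM in ASP 2 and Control 2, against 18.4 and 17.1 in ASP 1 and Control 1 (log2 −5.11). Reads shared with acdh-1 could add to the values of acdh-2.

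The later enzymes of the shunt moved the same way, by less. The list of the shunt and its nuclear receptors was written after values were seen, so its counts describe and carry no test: 7 of 8 members fell, 0 rose, and the median was −1.22, against 0.006 over all genes. ech-6 (176376, III 9751552 to 9752883), the enoyl-CoA hydratase of the second step, had 119.6 and 127 FPKM in ASP 2 and Control 2, against 319 and 358 in ASP 1 and Control 1 (log2 −1.44). hach-1 (175766, III 5555450 to 5557318), the hydrolase that releases 3-hydroxypropionate, had 53.4 and 51.3, against 117 and 115 (log2 −1.13). hphd-1 (174942, II 12994362 to 12996344), which oxidizes 3-hydroxypropionate, had 20.7 and 22.3, against 106 and 117 (log2 −2.36). The order of these differences was not the order of the steps. alh-8, the dehydrogenase that turns malonic semialdehyde into acetyl-CoA, fell least of the enzymes, with 262 and 282 FPKM in ASP 2 and Control 2, against 390.3 and 435 in ASP 1 and Control 1 (log2 −0.58, SE 0.12).

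F54D5.12, named dhgd-1 in the RefSeq table, encodes the D-2-hydroxyglutarate dehydrogenase that disposes of the by-product of the hphd-1 reaction, and it fell by 1.30 on the log2 scale (SE 0.09). Of the nuclear receptors that switch on acdh-1 when propionate builds up, nhr-68 fell, with 16.03 and 15.3 FPKM in ASP 2 and Control 2, against 27.3 and 29.9 in ASP 1 and Control 1 (log2 −0.85). nhr-10 was not called, at −0.08 (SE 0.11). In ASP 3 and Control 3 the shunt genes lay near number 2, for example 22.7 and 22.4 FPKM for hphd-1 and 122 and 122 for ech-6. The vitamin B12 supply of the animals was not measured. Between 5 and 6 of the 8 members fell when 1 of the 4 libraries was left out, and 7 with the libraries numbered 3 in the fit.

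**Figure D2:**
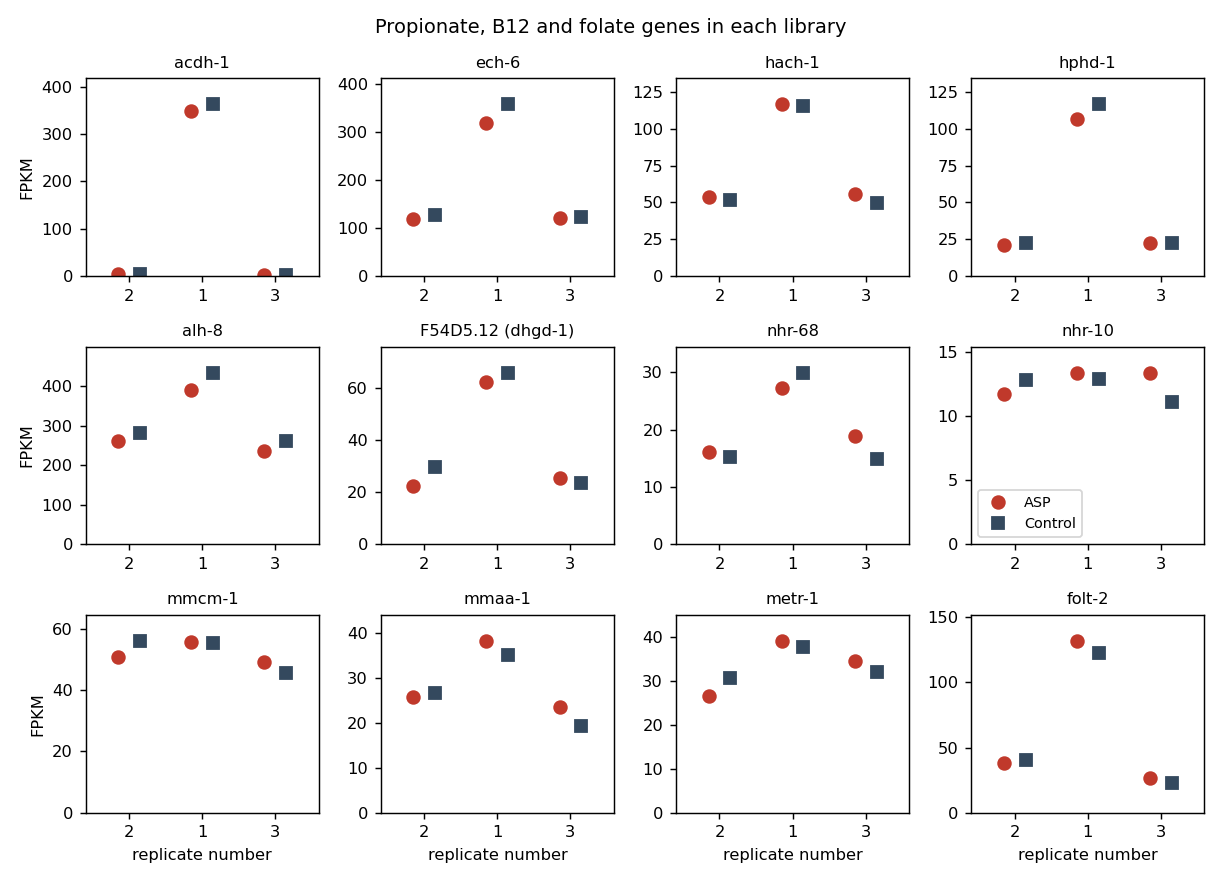
Each panel shows 1 gene's FPKM (y axis, from 0) in the ASP (red circle) and Control (dark square) library of replicate numbers 2, 1 and 3. The shunt genes acdh-1 to nhr-68, and folt-2, are high in number 1 alone, with acdh-1 at 349.7 and 364 FPKM there, while nhr-10 and mmcm-1 are near level.

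The B12-dependent route for propionate differed in 1 of 6 members, on a list also written after values were seen. The subunits of propionyl-CoA carboxylase stood at log2 −0.02 (SE 0.09) for pcca-1 and −0.01 (SE 0.09) for pccb-1, the epimerase mce-1 at 0.07 (SE 0.08) and the B12-using mutase mmcm-1 at −0.04 (SE 0.08). None of these passed. mmaa-1, which encodes a protein that helps load the cofactor into the mutase, fell, with 25.7 and 26.7 FPKM in ASP 2 and Control 2, against 38.3 and 35.1 in ASP 1 and Control 1 (log2 −0.47), a call that ended with any 1 of the 4 libraries left out.

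In the methionine and folate cycle, which also uses B12, 6 of 22 members fell and 2 rose, again on a list written after values were seen. The median was −0.004, above 0 with upper-quartile scaling. Of all tested genes 4.42% fell and 6.66% rose. The folate transporter homolog folt-2 (178745, V 2872465 to 2875600) fell most, with 38.3 FPKM in ASP 2 and 40.6 in Control 2, against 132 in ASP 1 and 122 in Control 1 (log2 −1.67, SE 0.08, edgeR adjusted p 6.04e-10). It kept its call under every setting that called any gene. metr-1, the B12-dependent methionine synthase, fell by 0.41 on the log2 scale, its reductase mtrr-1 by 0.36, the methylenetetrahydrofolate reductase mthf-1 by 0.30, the B12-processing homolog cblc-1 by 0.30 and the nuclear receptor nhr-114 by 0.53. These 5 smaller calls ended when ASP 2, Control 1 or Control 2 was left out. DESeq2 did not call mthf-1 or cblc-1, and the call of cblc-1 held in 2 of 17 other settings. In this list 1 member was called higher and 3 lower with the libraries numbered 3 in the fit, and 1 and 4 with DESeq2. cbs-1, which encodes cystathionine beta-synthase and draws homocysteine out of the cycle, rose, with 42.6 and 46.3 FPKM in ASP 2 and Control 2, against 26.8 and 32.4 in ASP 1 and Control 1 (log2 0.61). Branched-chain amino acid breakdown, which feeds the propionate route, differed in 1 of 12 members, acdh-9 (log2 −0.48).

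The other genes among the 12 that fell most were of several kinds. pgp-6 (181278, X 10871201 to 10877425), a P-glycoprotein that pumps small molecules out of cells, had 4.23 and 3.99 FPKM in ASP 2 and Control 2, against 16.07 and 11.8 in ASP 1 and Control 1. Its neighbours pgp-5 and pgp-7 on chromosome X fell as well (log2 −1.73 for pgp-6, −1.45 for pgp-5 and −1.60 for pgp-7). T05E12.6 stood at 16.7 and 17.2 FPKM in ASP 2 and Control 2, against 72.8 and 73.6 in ASP 1 and Control 1 (log2 −2.09). The rest were F55G11.2 (log2 −2.63), F32D8.12 (−1.78), C32H11.3 (−2.02) and 4 whose calls ended when a library numbered 2 was left out: Y58A7A.5 (−3.03) and DH11.2 (−1.72) without ASP 2, ZK1098.11 (−1.70) without Control 2, and F18E3.12 (−2.36) without either. ASP 2 exceeded Control 2 in 3 of the 12 that fell, and ASP 1 exceeded Control 1 in 7.

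**Figure D3:**
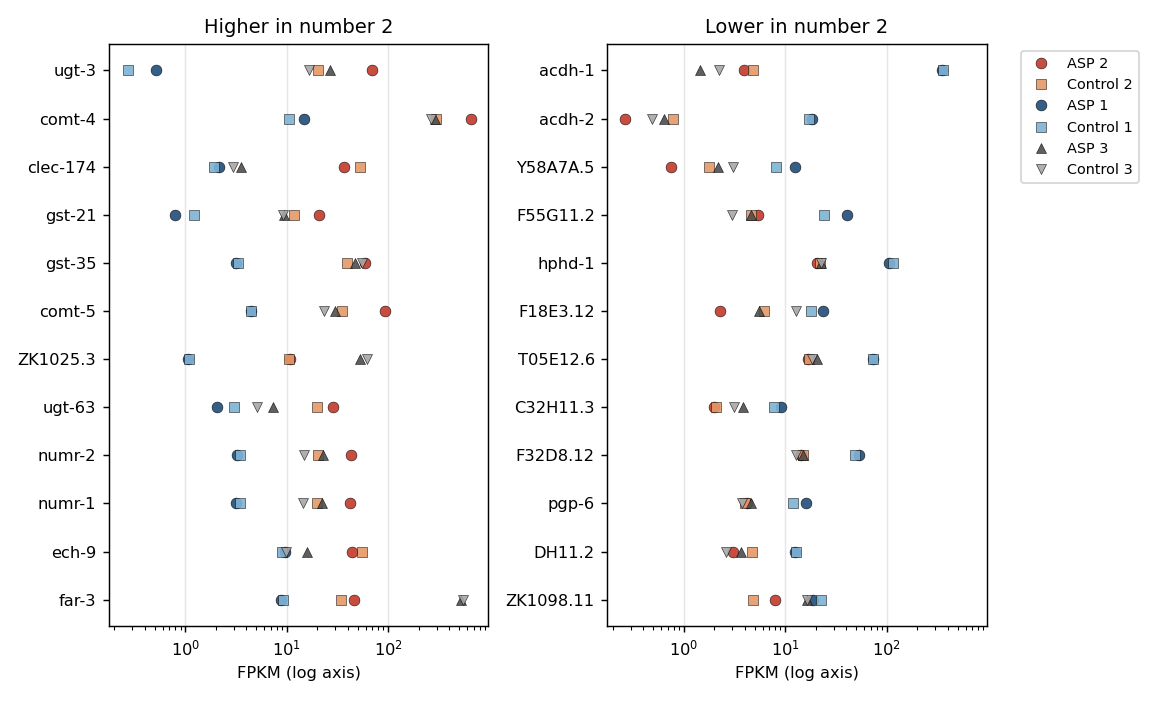
FPKM on a log axis of the 12 genes that rose most (left) and the 12 that fell most (right) in number 2, with 1 point per library. far-3 and ZK1025.3 were higher still in number 3 (517 and 553 FPKM for far-3), and acdh-1 and hphd-1 lie near number 2 there.

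Collagens that shape the furrows and the body rose in number 2. Of 20 tested furrow and body-shape collagens 15 rose and 0 fell, 20 of 20 were above 0, and the median was 0.99. Over all tested genes 6.66% rose. dpy-9 (176846, IV 257403 to 259204) was at 22.1 and 26.8 FPKM in ASP 2 and Control 2, against 4.36 in ASP 1 and 9.71 in Control 1 (log2 1.90, SE 0.17, edgeR adjusted p 1.05e-06). dpy-2, dpy-3 and dpy-8, which like dpy-9 make the annular furrows, rose by 1.72, 1.66 and 1.54. The 5 members not called by edgeR, named after their values were seen, were bli-6, dpy-4, dpy-13, ram-2 and rol-1. All 5 were abundant, the lowest value being 299 FPKM for rol-1 in Control 1. DESeq2 called 18 of the 20 members higher, so the split rests on the tool. In ASP 1 the furrow genes were lower than in Control 1, for example 4.17 against 8.52 FPKM for dpy-2, a comparison of 1 library with 1. With 1 library left out, 14 members stayed called higher without ASP 1 or Control 1, 8 without ASP 2 and 4 without Control 2.

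The adult cuticle list gave 3 higher calls of 7, among them the strut collagens bli-1 and bli-2. Every member is also in the furrow and body-shape list or in the col family, so these calls are counted there too. Shares over all tested genes were 6.66% higher and 4.42% lower. bli-1 (174653, II 10708960 to 10712156) had 31.3 and 40.3 FPKM in ASP 2 and Control 2, against 11.96 and 15.7 in ASP 1 and Control 1 (log2 1.39, SE 0.08). The adult collagen col-19 was not called, with 1234 and 1184 FPKM against 1258 and 1524 (log2 −0.18, SE 0.16). The wider col family did not move as a block. Of 115 members, 19 rose and 2 fell (col-118 and col-135, named after their values were seen), and the median was −0.04. col-176 rose most, at 47.2 and 63.95 FPKM in ASP 2 and Control 2, against 8.70 and 29.1 in ASP 1 and Control 1 (log2 1.77), where ASP 1 and Control 1 were themselves far apart. DESeq2 did not call it, and in the family 10 members were called higher with the libraries numbered 3 in the fit, 4 without ASP 2 and 0 without Control 2.

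Other lists of the cuticle and of molting held mostly higher calls among those made, where 6.66% of all tested genes rose and 4.42% fell. The zona pellucida and cuticlin list mainly holds proteins of the matrix outside the epidermis. Of its 24 tested genes 8 rose and 0 fell (median 0.50), among them the lipocalin gene lpr-3. noah-1 and noah-2, 2 matrix proteins needed to shed the old cuticle, rose by 1.63 (SE 0.10) and 1.79 (SE 0.10). noah-2 (178365, IV 14091254 to 14096626) had 18.4 and 24.5 FPKM in ASP 2 and Control 2, against 4.94 and 7.80 in ASP 1 and Control 1. Among 25 molting factors 11 rose and 0 fell (median 0.31). mlt-10 (173445, II 546705 to 552032), a molting gene of the epidermis, was at 36.9 and 42.5 FPKM in ASP 2 and Control 2, against 18.9 in ASP 1 and 18.8 in Control 1 (log2 1.09, SE 0.08). It kept its call under every setting that called any gene, as did the hedgehog-related gene qua-1 (log2 1.33). mlt-11, which encodes a protease inhibitor-like protein, rose by 1.72 and the matrix gene mlt-9 by 1.18, and both calls ended without ASP 2 or without Control 2.

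Hedgehog-related genes, secreted proteins that in nematodes act largely in the epidermis, gave 15 higher and 2 lower calls of 33 (median 0.48). wrt-10 (174224, II 7533262 to 7534563) had 17.03 and 19.2 FPKM in ASP 2 and Control 2, against 6.11 and 7.16 in ASP 1 and Control 1 (log2 1.47). wrt-1 and wrt-2 rose by 1.43 and 1.31. The 2 that fell, named after their values were seen, were grl-4 (−0.44) and grl-21 (−0.32). The patched-related genes, homologs of the hedgehog receptor, gave 12 higher and 1 lower call of 23 (median 0.35), with ptr-4 at 1.19 (SE 0.11) and ptr-2, named after its value was seen, lower at −0.32. Of 27 astacin metalloproteases, a family with members that loosen the old cuticle, 3 rose and 2 fell (11.1% and 7.41%). Shares over all tested genes were 6.66% and 4.42%, so the astacin list lay near them. With the libraries numbered 3 in the fit 2 astacin genes rose and 0 fell. The largest rise was that of nas-37 (log2 0.86), which is needed to escape from the cuticle.

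Regulators of the molting clock and of larval timing rose in part, with 7 higher and 0 lower calls of 17 (median 0.44). The shares over all tested genes were 6.66% and 4.42%. lin-42 (173503, II 1233236 to 1244035), the worm homolog of Period, had 26.2 and 31.2 FPKM in ASP 2 and Control 2, against 15.9 and 16.22 in ASP 1 and Control 1 (log2 0.85, SE 0.08, edgeR adjusted p 1.27e-06). The transcription factor genes bed-3, myrf-1 and grh-1 rose by 1.12, 0.91 and 0.83. nhr-23, a nuclear receptor that drives molting genes, was not called (0.07, SE 0.08), nor was the larva-to-adult switch factor lin-29 (0.10, SE 0.11). Lipocalins of the lpr family, several of which belong to the matrix lining outer surfaces, gave 5 higher calls of 7. That list was written after values were seen. lpr-3, lpr-5 and lpr-6 stood at 1.62, 1.88 and 1.60, and lpr-3 is counted in the zona pellucida and cuticlin list too.

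Without Control 2, calls remained for 4 of the furrow collagens and 3 of the molting factors, and for 0 members of the zona pellucida, hedgehog-related, patched-related, clock and adult cuticle lists. With the libraries numbered 3 in the fit, 14 furrow collagens, 9 molting factors, 12 hedgehog-related and 6 patched-related genes were called higher and 0 lower. In ASP 3 and Control 3 mlt-10 was higher again, with 101 and 91.3 FPKM.

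Oocyte and eggshell genes fell in number 2, each by little. Of 14 genes 10 fell and 0 rose, 0 of 14 were above 0, and the median was −0.48, where 4.42% of all tested genes fell. FPKM of the numbers did not overlap for any of the 14, against 53.8% of all tested genes without overlap. In whole animals, fewer cells of a type and less RNA per cell cannot be told apart. rme-2 (177329, IV 5470026 to 5473174), the oocyte receptor for yolk, was at 70.6 and 70.4 FPKM in ASP 2 and Control 2, against 95.7 in ASP 1 and 103 in Control 1 (log2 −0.48, SE 0.09, edgeR adjusted p 0.00195). The chondroitin proteoglycan genes cpg-1 and cpg-2, whose products form a layer of the eggshell, fell by 0.51 and 0.48 on the log2 scale. egg-2, an oocyte membrane gene needed for fertilization, and egg-4, a pseudophosphatase of the egg activation complex, fell by 0.51 and 0.50.

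Maternal RNA-binding proteins moved with them. Of 21 genes 14 fell and 0 rose, and 0 of 21 were above 0 (median −0.32), where 4.42% of all tested genes fell. pos-1 (179224, V 8414086 to 8415254), a zinc finger protein that sets cell fates in the early embryo, had 117 and 117 FPKM in ASP 2 and Control 2, against 166 and 172 in ASP 1 and Control 1 (log2 −0.52). The Nanos homolog nos-2 fell by 0.66, the oocyte maturation factors oma-1 and oma-2 by 0.28 and 0.49, and spn-4 by 0.46. Genes for DNA replication and the cell cycle gave 8 lower and 0 higher calls of 22 (median −0.21, 0 of 22 above 0). The replication licensing gene mcm-7 had 44.2 and 49.03 FPKM in ASP 2 and Control 2, against 57.0 and 61.8 in ASP 1 and Control 1 (log2 −0.33), and the B-type cyclin cyb-2.1, the ribonucleotide reductase subunit rnr-2 and the origin recognition subunit orc-1 fell by 0.40, 0.38 and 0.37.

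With the libraries numbered 3 in the fit, 7 oocyte and eggshell genes, 4 maternal RNA-binding genes and 2 replication genes were called lower. With 1 library left out, 0 to 2 oocyte genes, 0 to 1 maternal genes and 0 replication genes were called. The P granule and meiotic chromosome lists had medians of −0.07 and −0.08. Lower calls were 2 of 18 P granule genes (11.1%) and 2 of 22 meiotic chromosome genes (9.09%), with 0 higher. The share lower over all tested genes was 4.42%. The P granule calls were meg-1 and meg-3, whose proteins organize germ granules in the embryo (log2 −0.40 and −0.56), and the meiotic calls were syp-3 and zhp-3 (−0.34 and −0.36). All 4 ended with the libraries numbered 3 in the fit, and DESeq2 called neither syp-3 nor zhp-3.

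Sperm genes, yolk genes and the zygotic list gave few calls or 0. Of 84 sperm genes 2 rose and 1 fell, with a median of −0.02 that was above 0 with upper-quartile scaling, and spe-49 and spe-4 rose by 0.71 and 0.40, calls that DESeq2 did not make. Among the 6 vitellogenins, the yolk protein genes, edgeR and DESeq2 called 0, and 0 had an unadjusted p under 0.05 in edgeR (median 0.02). vit-2 had 741 and 691 FPKM in ASP 2 and Control 2, against 749 and 912 in ASP 1 and Control 1 (log2 −0.19, SE 0.24). Of the 5 zygotic embryo genes 1 rose, pes-4 (0.33), and 1 fell, sdz-24 (−0.28, named after its value was seen). The call of pes-4 held in 5 of 17 other settings. This list had 0 calls with DESeq2 and 0 with the libraries numbered 3 in the fit. Shares over all tested genes were 6.66% higher and 4.42% lower.

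**Figure D4:**
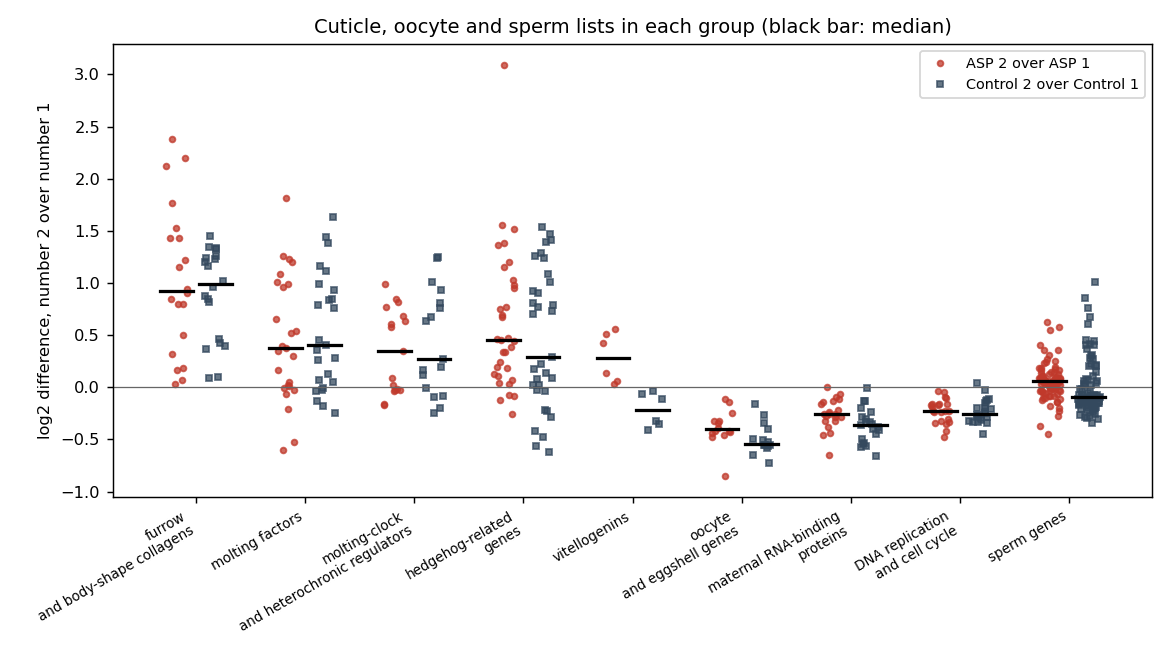
Each point is a gene's log2 difference, ASP 2 over ASP 1 (red) or Control 2 over Control 1 (dark), for 9 lists of cuticle, oocyte, sperm and yolk genes, with a black bar at the median. Furrow collagens lie above 0 in both groups (medians 0.93 and 0.99), oocyte and eggshell genes below 0 in both (−0.40 and −0.54), and vitellogenins above 0 in ASP and below 0 in Control (0.28 and −0.22).

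Immune genes moved in both directions, where 6.66% of all tested genes rose and 4.42% fell. Of 28 gut immune effectors, genes that respond to bacterial infection, 10 rose and 7 fell (median 0.05), and 1 and 2 did without Control 2, against 4 and 3 without ASP 2. clec-86 (183775, X 7139875 to 7140566), a C-type lectin gene, was at 99.6 and 113 FPKM in ASP 2 and Control 2, against 28.6 in ASP 1 and 27.8 in Control 1 (log2 1.93, SE 0.09). sysm-1, a widely used reporter of p38 kinase activity, had 29.9 and 32.9 FPKM in ASP 2 and Control 2, against 14.7 and 13.6 in ASP 1 and Control 1 (log2 1.16), and irg-4 had 38.6 and 42.0, against 26.2 and 22 (log2 0.76). The p38 pathway itself gave 0 calls of 11 in edgeR and in DESeq2 and 1 unadjusted p under 0.05 in edgeR, with pmk-1, the p38 kinase, at 0.14 (SE 0.12) and the smallest p for dkf-2 (−0.20, edgeR adjusted p 0.125).

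Other effectors fell, and they are given here after their values were seen. lys-4, a lysozyme gene, had 51.7 and 66.0 FPKM in ASP 2 and Control 2, against 151 and 159.7 in ASP 1 and Control 1 (log2 −1.39, SE 0.08). irg-3 stood at 23.05 and 20.9 FPKM, against 60.7 and 51.7 (log2 −1.34), and irg-1, an infection gene that does not need the p38 pathway, at 9.996 and 10.7, against 17.9 and 14.9 (log2 −0.65). The list thus divided within families as well as between them. Shares over all tested genes were 6.66% higher and 4.42% lower. Of 30 lysozymes, saposins and antibacterial factors 7 rose and 3 fell (median 0.20; 3 and 1 with the libraries numbered 3 in the fit, 0 and 2 without ASP 2, 1 and 1 without Control 2), with spp-23 at 0.94, spp-18 at 0.70 and lys-7 not called at 0.02 (SE 0.08). spp-9 had the largest log2 difference there (3.36) but under 0.5 FPKM in all 4 libraries, and its call held in 5 of 16 other settings.

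C-type lectins are a large family with many infection-responsive members. Against 6.66% and 4.42% of all tested genes, they gave 28 higher and 12 lower calls of 97 (median 0.14). These became 13 and 6 with the libraries numbered 3 in the fit, 7 and 1 without ASP 2, and 2 and 0 without Control 2. Besides clec-174 and clec-86, clec-42 rose by 2.20 and clec-52 by 1.67. clec-52 had 21.7 and 20.8 FPKM in ASP 2 and Control 2, against 5.76 and 7.91 in ASP 1 and Control 1. Of the C32H11 cluster on chromosome IV, on a list written after values were seen, 4 of 7 rose and 2 fell. C32H11.9 had 136 and 156 FPKM in ASP 2 and Control 2, against 70.1 and 34.7 in ASP 1 and Control 1, and 5.17 and 7.48 in ASP 3 and Control 3 (log2 of number 2 over number 1 1.57). Its call ended with DESeq2, with the robust shared spread, and without ASP 2 or Control 2, and without Control 2 the cluster had 0 higher calls. C32H11.3, in the same cluster, fell (−2.02). Epidermal antimicrobial peptides gave 1 higher and 2 lower calls of 14, the pals family 2 and 0 of 12, and the F-box fbxa family 10 and 1 of 83. The fbxa calls all ended with the libraries numbered 3 in the fit.

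Among detoxification families, the sugar-transferring enzymes and the cytochrome P450 genes held mostly higher calls. Over all tested genes 6.66% rose and 4.42% fell. UDP-glucuronosyltransferases gave 15 higher and 5 lower calls of 50 (median 0.23), with ugt-18 and ugt-8 at 2.13 and 1.48 after ugt-3 and ugt-63. They were 7 and 2 with the libraries numbered 3 in the fit, 3 and 0 without ASP 2, and 2 and 0 without Control 2. Of 37 cytochrome P450 genes, oxidases of foreign and endogenous compounds, 7 rose and 0 fell (median 0.30). cyp-29A2 had 9.65 and 9.89 FPKM in ASP 2 and Control 2, against 4.31 and 5.56 in ASP 1 and Control 1 (log2 1.01), and cyp-13B1 rose by 1.29. Glutathione S-transferases split evenly, with 4 higher and 4 lower calls of 36 (11.1% each), where gst-30 fell by 1.53 and gst-38 fell by 1.09. ABC transporters gave 4 higher and 7 lower calls of 43 (9.30% and 16.3%), the lower ones led by pgp-6. Of ABC transporters 1 was called higher and 6 lower with the libraries numbered 3 in the fit, and of glutathione S-transferases 2 and 3. For the P450 genes 2 higher calls were made with the libraries numbered 3 in the fit, 0 without ASP 2 and 0 without Control 2.

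Digestive proteases included large differences in both directions. Of all tested genes 6.66% rose and 4.42% fell. The list of vacuolar ATPase and gut protease genes gave 7 higher and 4 lower calls of 40 (median 0.13), and 2 of each without Control 2 or with the libraries numbered 3 in the fit. cpr-4 (179053, V 6614674 to 6615851), a cathepsin B-like protease gene of the gut, was at 237 and 243 FPKM in ASP 2 and Control 2, against 69.8 in ASP 1 and 90.6 in Control 1 (log2 1.61, SE 0.10). asp-12, an aspartyl protease gene, rose with it (195 and 257 FPKM in ASP 2 and Control 2, against 72.5 and 63.3 in ASP 1 and Control 1). The related asp-13, named after its value was seen, fell, at 44.5 and 45.5 FPKM, against 123 and 132 (log2 −1.48). Intestine markers gave 3 higher and 0 lower calls of 19 (median 0.15), among them the gut esterase ges-1 (0.47).

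Small heat shock genes of the hsp-16 class fell, with overlapping libraries. Heat shock genes gave 3 higher and 6 lower calls of 32 (median 0.05), against 6.66% and 4.42% over all tested genes. hsp-16.2 (178659, V 1804334 to 1804957), a small chaperone induced by heat, was at 0.787 and 2.72 FPKM in ASP 2 and Control 2, against 2.47 in ASP 1 and 6.98 in Control 1 (log2 −1.45, SE 0.33, edgeR adjusted p 0.00762). Both Control libraries exceeded the ASP library of their own number, so the numbers overlapped and the call rested on the group term. hsp-16.41, hsp-16.48 and hsp-16.49 had the same pattern (log2 −1.54, −0.74 and −0.77), and reads shared by these similar genes make single values uncertain. The calls of all 4 ended with the libraries numbered 3 in the fit, without the group term and with any 1 of the 4 libraries left out. hsp-17, another small heat shock gene, rose, and is named after its value was seen. It had 113 and 133 FPKM in ASP 2 and Control 2, against 62.5 and 59.4 in ASP 1 and Control 1 (log2 1.03, SE 0.09). The inducible hsp-70 was not called (0.12, SE 0.20), nor was the heat shock factor gene hsf-1 (−0.12, SE 0.08).

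Other stress and metabolic lists held calls in both directions, set against 6.66% higher and 4.42% lower over all tested genes. The unfolded protein response of the endoplasmic reticulum gave 2 higher and 0 lower of 21, and that of mitochondria 0 higher and 1 lower of 13, its regulator atfs-1 (−0.35). SKN-1 and oxidative stress genes gave 3 higher and 4 lower of 25, with gst-4 not called at −0.18 (SE 0.11). The insulin pathway and DAF-16 targets gave 2 higher and 5 lower of 22, where dod-24 fell by 0.74 and dod-17 fell by 0.60. daf-16 itself stood at −0.09 (SE 0.08), sod-3 at 0.23 (SE 0.24) and mtl-1 at −0.35 (SE 0.45), and none of the 3 was called. Beta-oxidation and lipolysis genes gave 9 and 9 of 55, the lower ones led by acdh-1 and acdh-2 and the higher ones by lipl-6 (1.05), cpt-6 (0.77) and acs-20 (0.69). With the libraries numbered 3 in the fit, this list had 3 higher and 5 lower calls, the SKN-1 list 0 and 4, and the insulin list 0 and 2. DESeq2 did not call lipl-6 or dod-24. acs-2, an acyl-CoA synthetase of fat burning named after its value was seen, fell, with 0.909 and 1.71 FPKM in ASP 2 and Control 2, against 8.45 and 4.64 in ASP 1 and Control 1. Fatty acid synthesis gave 2 higher and 0 lower of 24, led by the elongase elo-4 (0.76). Glycolysis and the citrate cycle gave 0 and 2 of 34, the glyoxylate enzyme icl-1 (−0.64) and the hexokinase hxk-1 (−0.36). DESeq2 did not call icl-1. Both unfolded protein response lists, fatty acid synthesis and the glycolysis list had 0 calls with the libraries numbered 3 in the fit.

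The abu genes, several of which encode proteins of the pharyngeal cuticle, mostly fell. On a list written after values were seen, 9 of 12 fell and 2 rose (median −0.55), where 4.42% and 6.66% of all tested genes did. abu-8 had 36.8 and 32.95 FPKM in ASP 2 and Control 2, against 55.8 and 54.8 in ASP 1 and Control 1 (log2 −0.65), and abu-4 fell most (−2.21). The 2 that rose were abu-12 (0.86) and abu-13 (0.89). Several abu genes are similar in sequence, so reads may be split between them. With the libraries numbered 3 in the fit 2 rose and 2 fell, and without Control 2 no member was called.

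**Figure D5:**
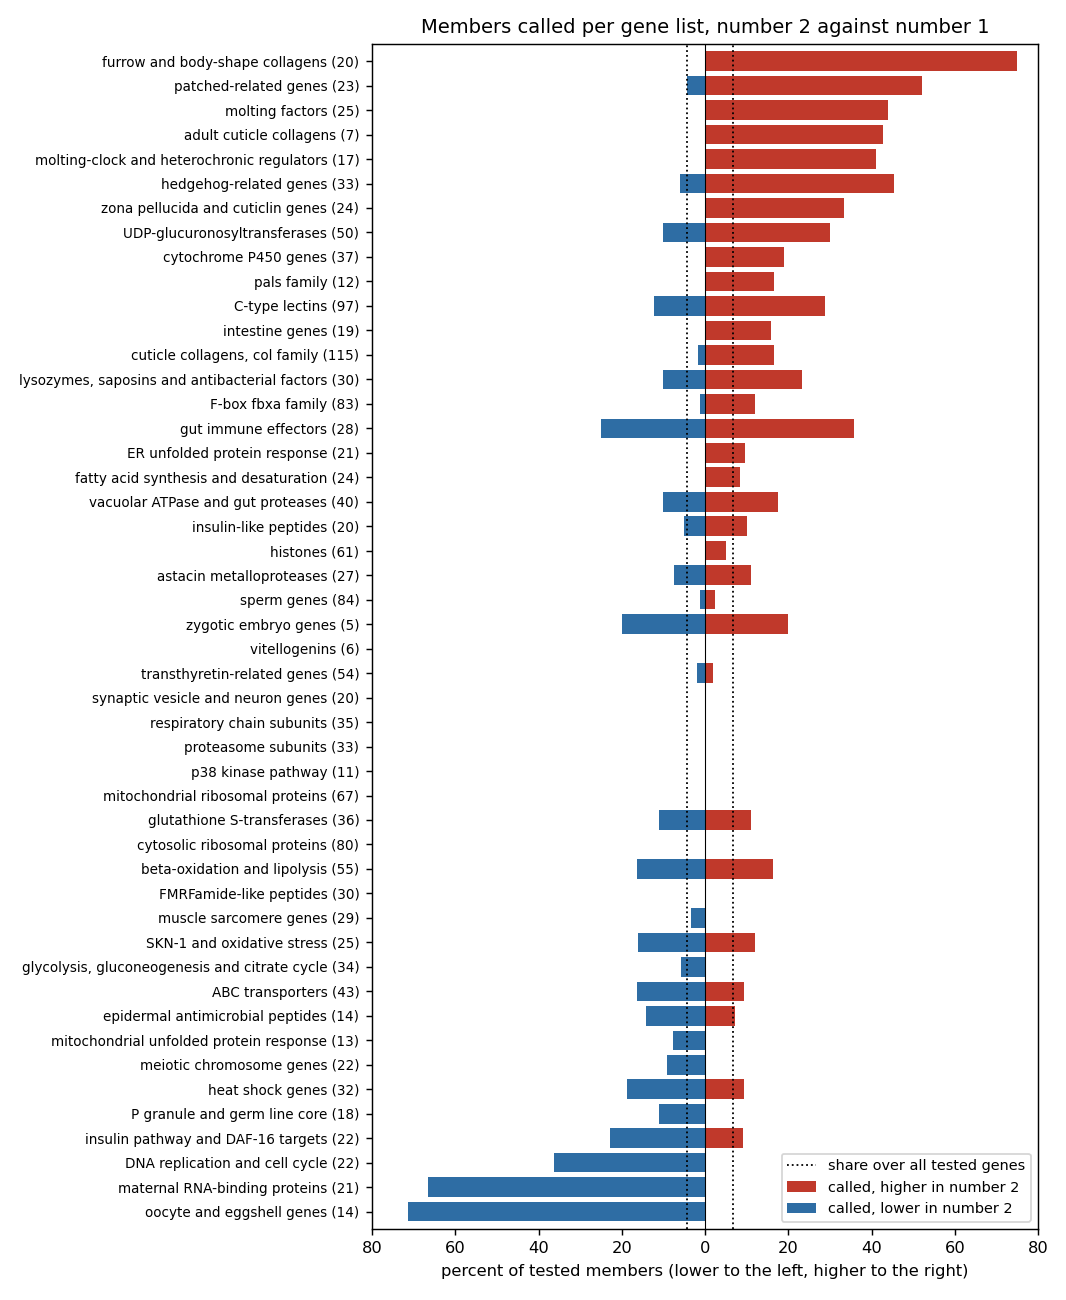
For each of 48 gene lists, with its number of tested members in brackets, bars give the percent of members called higher (red, right) and lower (blue, left) in number 2, and dotted lines mark the shares over all tested genes, 6.66% and 4.42%. Furrow and body-shape collagens have 75% of members called higher, and oocyte and eggshell genes 71.4% called lower.

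Housekeeping and tissue lists gave few calls or 0. No member was called by edgeR or DESeq2 among 80 cytosolic ribosomal proteins, 67 mitochondrial ribosomal proteins, 35 respiratory chain subunits and 33 proteasome subunits, with medians between −0.004 and 0.06. An unadjusted p under 0.05 in edgeR was held by 0, 2, 1 and 0 of them in that order, the mitochondrial ones led by mrps-31 (0.25, SE 0.09). Neither 30 FMRFamide-like peptides nor 20 synaptic vesicle and neuron genes gave a call in either tool (medians −0.05 and −0.005, with 1 and 2 genes at an unadjusted p under 0.05 in edgeR), and the smallest p belonged to flp-21 (−0.64, SE 0.26) and ida-1 (−0.24, SE 0.08). Of 29 muscle sarcomere genes 28 were below 0, but the median was only −0.15 and 1 was called, the troponin T gene tnt-3 (−0.52). Of 54 transthyretin-related genes 1 rose and 1 fell, of 20 insulin-like peptides 2 and 1, led by ins-35 (1.87), and of 61 histone genes 3 and 0. The call of ins-35 ended with DESeq2, which called 0 members of its list higher, with the filterByExpr filter, and without ASP 1, ASP 2 or Control 2. The histone H1 gene his-24 was at the edge of a call (0.32, edgeR adjusted p 0.0443), and it ended with the libraries numbered 3 in the fit.

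The share of genes called varied between chromosomes. On X 9.12% of tested genes rose and 3.02% fell, and on V 8.30% rose and 6.85% fell, while on I to IV between 5.07% and 6.82% rose and between 3.58% and 4.52% fell. The median log2 difference was 0.06 on X and between −0.01 and 0.01 on the other chromosomes. Length classes held genes with at least 50 counts in each of the 4 libraries. The share that rose grew with transcript length, with 4.43% in the shortest of 5 length classes and 8.13% in the longest. The share that fell was also lowest in the shortest class, at 2.21%, with 5.88% in class 3 and 4.12% in the longest. The medians of the 5 length classes lay between −0.005 and 0.02. Among genes with a mean under 5 FPKM 217 of 3714 rose and 78 fell, and between 20 and 100 FPKM 255 of 4073 rose and 305 fell.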

How the data were processed

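Libraries of poly(A)-selected RNA were made from whole worms, 6 in all, and grouped and numbered by their titles. The deposited table holds FPKM for each library, per the file headers, a level scaled to transcript length and library depth. It also gives estimated counts, per the file headers, which were deposited as whole numbers, so rounding changed nothing. CASAVA 1.4 and 2 mouse builds, mm9 and mm10, stand in the submitters' processing notes, whereas the table's chromosome accessions belong to the worm build WBcel235. Aligner, counter and strand setting were not given in the sources used here, so genes that overlap or have similar copies may share reads. RefSeq's gene table held 25206 of the 25212 IDs, 97.1% of these with the same start.

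Genes averaging 1 FPKM or more across the 6 libraries were tested with edgeR 4.0.16 (R 4.3.3, TMM normalization, quasi-likelihood test, Benjamini-Hochberg adjustment, threshold 0.05) on the estimated counts of the 4 libraries numbered 2 and 1, with treatment group and number as terms. This leaves 1 residual degree of freedom per gene, namely how unlike the difference between the numbers was in ASP and in Control. The spread shared across genes adds a prior of 15.4. Single genes had a median 95% interval of 0.27 to either side on the log2 scale. Data were simulated for number 2 against number 1 over 13790 genes. Of genes changed 1.5-fold 59.5% were recovered, of those changed 2-fold 85.9% and of those changed 4-fold 98.4%. Among 13590 unchanged genes 16 were called. The simulated counts took their spread from the fit to the same 4 libraries and were refitted with the same model. They therefore cannot show whether that spread was estimated well. Fold changes of a single library over another are log2 counts scaled to depth with a prior count of 2.

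Named genes are the 12 higher and the 12 lower called protein-coding genes with the largest difference, a mean of at least 5 FPKM and the same sign in ASP and Control, up to 4 called members of each of 48 gene lists (or the member with the smallest p), and 20 genes always given. The compared libraries, the genes and the lists were chosen with earlier results of these data known, and 10 further lists were written after values were seen. Lists were described by counts and medians, with no list test. In the lists 8 entries were not found in the table.

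Alternatives were other normalizations, filters and pseudocounts (limma 3.58.1 on log2(FPKM + 1) or log2(FPKM + 0.1)), DESeq2 1.42.0, all 6 libraries in the fit, and each of the 4 libraries left out of that fit. A filterByExpr filter and a robust shared spread were added after the data were seen. No sequence is shown, because no sequence table or genome of this build was used here.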

Additional observations from a re-analysis of the deposited data

Results flagged for a closer look

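The difference between numbers 2 and 1 pointed one way in the ASP libraries and the other way in the Control libraries for 17 gene lists and 6 of the genes always given. Each value below is the log2 difference of ASP 2 over ASP 1 minus that of Control 2 over Control 1, for lists as the difference of medians. With 1 library in each cell, none of these differences was tested.

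Lists above 0 in ASP and below 0 in Control were vitellogenins (0.50), cytosolic ribosomal proteins (0.28), methionine and folate cycle genes (0.224), the col family (0.203), glutathione S-transferases (0.199), sperm genes (0.152), fatty acid synthesis genes (0.131), proteasome subunits (0.12), respiratory chain subunits (0.112), FMRFamide-like peptides (0.105), branched-chain amino acid breakdown genes (0.10), mitochondrial ribosomal proteins (0.0724) and transthyretin-related genes (0.0453). Lists below 0 in ASP and above 0 in Control were epidermal antimicrobial peptides (−0.321), the B12-dependent propionate pathway (−0.0825), synaptic vesicle and neuron genes (−0.0707) and the p38 kinase pathway (−0.0619).

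Among single genes, the metallothionein mtl-1 differed most (1.48, with 0.488 in ASP and −0.992 in Control), at 1.07 and 1.45 FPKM in ASP 2 and Control 2, against 0.744 and 2.91 in ASP 1 and Control 1. The others were hsp-70 (−0.893), vit-2 (0.445), col-19 (0.396), nhr-23 (−0.192) and lys-7 (0.115).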

How the results depend on the processing

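The 1528 calls between numbers 2 and 1 became 530 with all 6 libraries in the fit, 970 with library totals only, 898 with DESeq2, and 643 and 652 with limma on log2(FPKM + 1) and log2(FPKM + 0.1). Between 78 (without Control 2) and 633 (without Control 1) genes were called when 1 library was left out of the fit over the 6, with 195 without ASP 2 and 413 without ASP 1; there the number with 1 library left is assumed to vary like the others. With no filter edgeR called 0 of 23459 genes (2785 had an unadjusted p under 0.05), the prior degrees of freedom being 1.93, against 15.4 with the filter; the cause of these differences was otherwise not tested. Other settings gave 1122 to 1585 calls, filterByExpr and the robust spread having been chosen after seeing the data. No named gene that was called changed sign. Of 48 list medians 38 (without ASP 1) to 48 kept their sign, and the largest median that changed sign was that of zygotic embryo genes (0.08 with no filter, which adds members, against −0.27). The share of genes with the same sign in ASP and Control was 66.7% at a mean of at least 5 FPKM, against 65.8%.

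With the replicate number as a replicate block, ASP against Control within numbers 1 and 2 gave 39 calls in edgeR (5 higher, 34 lower, 703 at an unadjusted p under 0.05), against 0 (94) without it. The labels do not say that a number marks a shared culture or day, so what libraries of the same number share beyond it is unknown. There were only 2 pairs, and the differences between numbers correlated across genes (r 0.571).

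The precision of single genes is limited by 1 residual degree of freedom; the median 95% interval reached 0.27 to either side on the log2 scale.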
